A study of Canis lupus familiaris with 16 samples.

Results

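The genes described here are 10 enzymes that make serine, one-carbon units and asparagine: PHGDH, PSAT1, PSPH, SHMT1, SHMT2, MTHFD1, MTHFD1L, MTHFD2, ALDH1L2 and ASNS. They were picked by symbol from the 39543 symbols of the count tables. Each had 1 entry per table, and all 10 passed the filter on low counts. The data were RNA-seq read counts from 4 canine cell lines in primary culture, KU-cHCC-001 and KU-cHCC-002, with KU-cHCC-004 as well as KU-cHCC-005, which the labels call hepatocellular carcinoma. Each line was given 4 treatments for 24 h, with 1 library per line and treatment: sorafenib at 30 µM, its vehicle DMSO, toceranib at 15 µM, and its vehicle DPBS (Dulbecco's phosphate-buffered saline). Sorafenib and toceranib both inhibit receptor tyrosine kinases, and sorafenib also inhibits RAF kinases. All groups grew in serum-containing Advanced DMEM with added glutamine dipeptide and N-acetyl-L-cysteine, a cysteine donor. By the labels a group therefore holds 4 libraries, 1 from each line, and its spread is that between lines; the DPBS libraries did not match those labels.

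Cells make serine from the glycolytic intermediate 3-phosphoglycerate in 3 steps, by the dehydrogenase PHGDH, the aminotransferase PSAT1 and the phosphatase PSPH. Serine hydroxymethyltransferases then split serine into glycine and a one-carbon unit carried by folate, SHMT1 in the cytosol and SHMT2 in mitochondria. In mitochondria MTHFD2 and MTHFD1L oxidise that unit to formate and ALDH1L2 oxidises it to carbon dioxide, while MTHFD1 handles the same folate forms in the cytosol. One-carbon units feed purine, thymidylate and methionine synthesis. ASNS makes asparagine from aspartate and glutamine, and several of these genes are known targets of ATF4, the transcription factor of the integrated stress response.

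Library totals ran from 12008366 to 21943572 counts, lowest in toceranib of KU-cHCC-005. The bile duct keratin KRT7 stood at 5474 to 7683 CPM (counts per 1000000 counts) with DMSO in 3 lines but only 288 CPM in KU-cHCC-001. The hepatocyte product ALB was at or below 0.0602 CPM with DMSO. In KU-cHCC-001 the sum of 6 mesenchymal markers was 14423 CPM with DMSO, against 2010 to 2536 CPM in the other lines. With sorafenib and toceranib it was 10564 and 10215 CPM in KU-cHCC-001. The mismatch of the DPBS libraries showed in 535 genes that stood out in KU-cHCC-001, each 4-fold or more above every other line under both DMSO and sorafenib. Their median log2(CPM + 0.5) in that line was 3.94 for DMSO, 3.71 for sorafenib and 3.95 for toceranib, but -0.72 in the DPBS library labelled with it. The DPBS libraries formed 2 close pairs, labelled 001 with 004 and 002 with 005. The summed level of 10 stromal markers was 932 and 1054 CPM in DPBS 002 and 005. It was 137, 26.4, 239 and 873 CPM with toceranib in KU-cHCC-001, 002, 004 and 005, against 121, 37.5, 222 and 21.2 CPM with DMSO and 25.4 to 96.96 CPM with sorafenib. In KU-cHCC-004, 6 of the 10 markers reached 5 CPM with toceranib against 2 with DMSO, and in KU-cHCC-005, 7 against 1. The collagen gene COL3A1 was at 0 in all DMSO and sorafenib libraries. Of 7 leukocyte markers at most 2 reached 5 CPM in any library, and CD3E was at 0 throughout, although their sum reached 331 CPM in KU-cHCC-001 given toceranib, against at most 85.2 CPM elsewhere. Markers of the liver's epithelial cells differed between treatments. The sum of 7 hepatocyte markers was 6.05, 88.7, 89.3 and 88.1 CPM with DMSO, lower in each line with sorafenib (3.16, 55.4, 48.8 and 57.0 CPM) and higher in each with toceranib (30.6, 149, 152 and 200 CPM; 165 to 244 CPM with DPBS), although at most 2 of the 7 reached 5 CPM in any library. The sum of 7 bile duct markers was 1079, 14444, 12330 and 9318 CPM with DMSO and lower in each line with sorafenib (506, 9889, 7992 and 8439 CPM); with toceranib it was higher in KU-cHCC-001 and 005 and lower in the other lines (3332, 9365, 11542 and 11096 CPM). The part of these differences in the results that follow was not tested. Because of the DPBS mismatch, each drug was compared with DMSO of the same line. This used a fit of the 12 DMSO, sorafenib and toceranib libraries with the line as a term. For toceranib, drug and vehicle change together in that comparison. Comparisons with DPBS come from a fit of all 16 libraries that ignores the line.

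With DMSO the genes differed between lines to very different degrees. ALDH1L2 stood at 82.2 CPM in KU-cHCC-001, 45.2 CPM in KU-cHCC-005, 6.95 CPM in KU-cHCC-004 and 1.33 CPM in KU-cHCC-002, the last from 22 counts. The highest line was 62.0-fold above the lowest, and the 4 lines kept this order with sorafenib and with toceranib. MTHFD1, by contrast, lay between 500.4 and 584 CPM, a 1.17-fold range. The other 8 genes spanned 1.42-fold (PSPH) to 3.58-fold (PSAT1). KU-cHCC-001 had the highest DMSO level of 6 of the 10 genes, PHGDH, PSAT1, PSPH, SHMT1, MTHFD2 and ALDH1L2, and the lowest of SHMT2 and ASNS. Differences between lines are given as a description and were not tested.

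**Figure D1:**
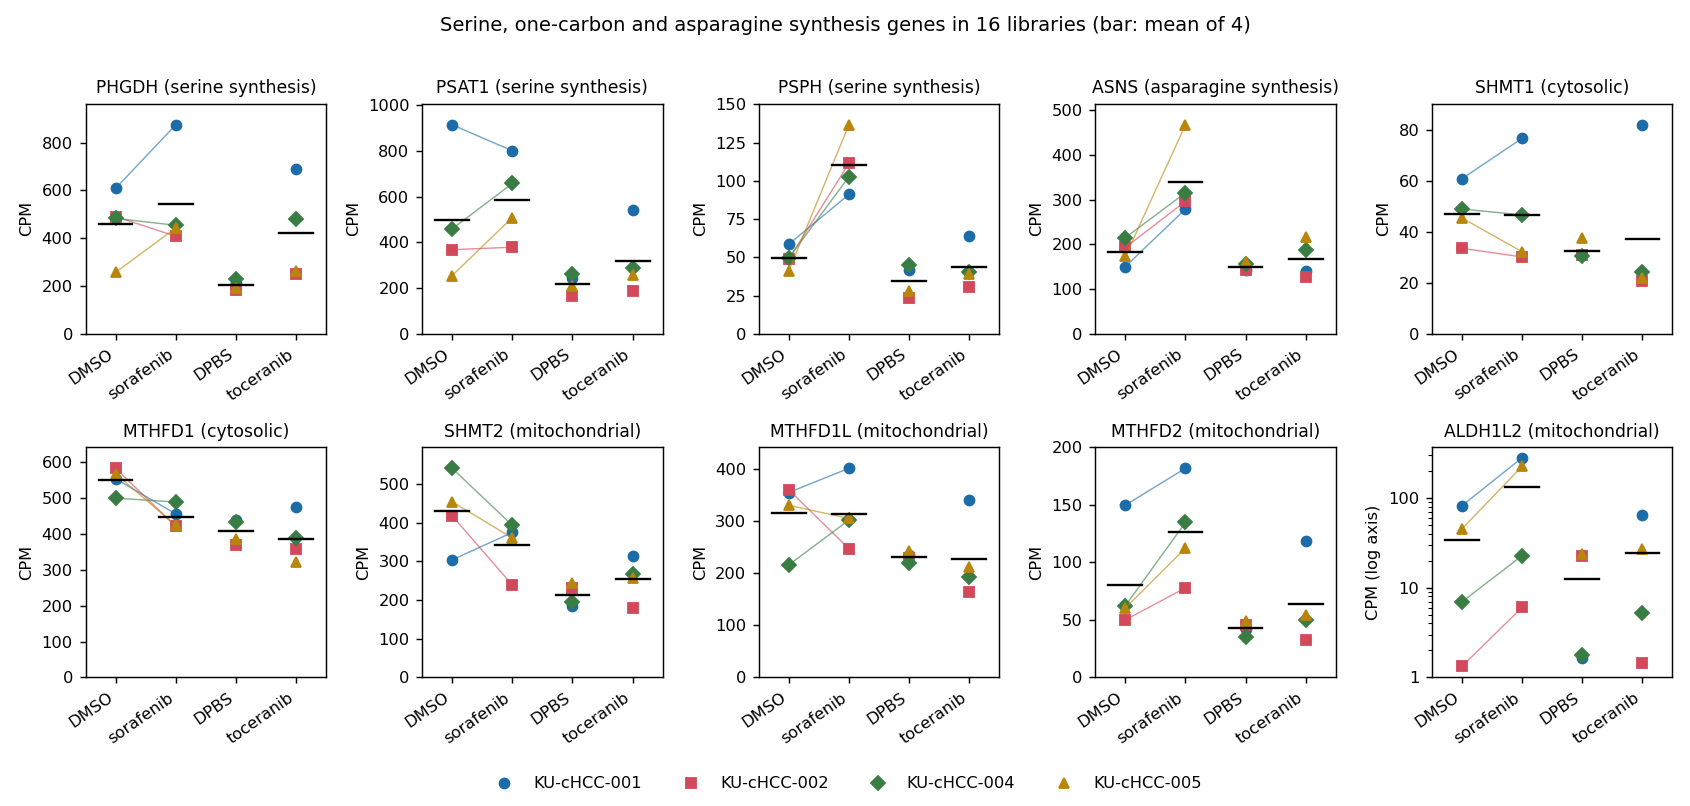
CPM of the 10 genes (y axis, logarithmic for ALDH1L2) in the 4 treatments (x axis); symbols mark the line on the label, black bars the mean of 4 libraries, and thin lines join DMSO and sorafenib of a line. All sorafenib libraries lie above all DMSO libraries for PSPH and ASNS, and the DPBS values of ALDH1L2 fall into 2 pairs.

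Sorafenib raised 4 of the 10 genes against DMSO and lowered none at an adjusted p under 0.05. They were ALDH1L2, PSPH, ASNS and MTHFD2, 1 or 2 enzymes from each branch except the cytosolic one. Of all 14938 genes tested, 19.6% passed, 9.59% higher and 10.1% lower. The median log2 fold change of the 10 genes was 0.27, beside -0.02 over all genes tested. With no other call, the remaining 6 genes lay between -0.37 and 0.32.

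Among the serine synthesis genes, PSPH, which removes the phosphate in the last step, rose. It stood at 58.6, 48.8, 49.6 and 41.2 CPM with DMSO and at 91.2, 112, 103 and 137 CPM with sorafenib in KU-cHCC-001, 002, 004 and 005. The groups did not overlap, and the smallest rise was in KU-cHCC-001. The log2 fold change was 1.16 ± 0.22 (SE, edgeR adjusted p = 0.00575), a 2.24-fold rise, higher in 4 of 4 lines. The call ended narrowly without KU-cHCC-004 (1.21, edgeR adjusted p = 0.0508) and without KU-cHCC-005 (0.99, edgeR adjusted p = 0.0509). These were the least significant of its 13 alternatives, which began at 2.44e-05.

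The first 2 enzymes of the pathway did not pass. PHGDH, which commits 3-phosphoglycerate to serine, went from 608, 490, 483 and 257 CPM with DMSO to 874, 408, 454 and 443 CPM with sorafenib. It was thus higher in 2 lines and lower in 2 (log2 fold change 0.21 ± 0.22, edgeR adjusted p = 0.517). PSAT1, the transaminase of the second step, went from 915, 368, 460 and 255 CPM to 801, 379, 658 and 509 CPM (0.32 ± 0.20, adjusted p = 0.297). KU-cHCC-005, the line with the lowest DMSO level of both, had the largest per-line increase of each, 0.78 for PHGDH and 0.99 for PSAT1 on the log2(CPM + 0.5) scale.

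In mitochondria 2 of the 4 enzymes rose, ALDH1L2 and MTHFD2. ALDH1L2, which releases the unit as carbon dioxide while making NADPH, stood at 282, 6.03, 22.8 and 226 CPM with sorafenib, against 82.2, 1.33, 6.95 and 45.2 CPM with DMSO. The groups overlap, since KU-cHCC-001 and 005 with DMSO lie above 002 and 004 with sorafenib, but every line was higher with sorafenib than with DMSO. Its log2 fold change was 1.97 ± 0.20 (edgeR adjusted p = 2.75e-04), a 3.92-fold rise, with per-line changes of 1.64 to 2.31. MTHFD2, the dehydrogenase and cyclohydrolase next to SHMT2, went from 150, 49.99, 62.2 and 60.3 CPM to 182, 77.8, 135 and 112 CPM. It was higher in 4 of 4 lines, and its log2 fold change was 0.72 ± 0.17 (edgeR adjusted p = 0.0135).

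The calls of these enzymes differed in how far they held. ALDH1L2 passed with any 1 line left out, and over its 13 alternatives the adjusted p ran from 1.15e-16 to 0.532. It failed when the line was left out of the model (0.532), where the spread between lines enters the error, and when the DPBS libraries entered under their labelled lines (0.292). MTHFD2 lost its call without KU-cHCC-002 (edgeR adjusted p = 0.0642), 004 (0.119) or 005 (0.0894), with estimates of 0.75, 0.60 and 0.70. It also lost the call without the line in the model (0.532) and with the DPBS libraries (0.0859), within a range of 0.00124 to 0.532. Calls over all genes fell as well without KU-cHCC-002, 004 or 005, from 2935 to 915, 596 and 783.

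The other mitochondrial enzymes did not pass. SHMT2 had 304, 418, 541 and 454 CPM with DMSO against 375, 239, 393 and 360 CPM with sorafenib, lower in 3 of 4 lines (log2 fold change -0.37 ± 0.20, edgeR adjusted p = 0.218). Without KU-cHCC-001, the line in which it was higher, SHMT2 passed as lower (-0.54, edgeR adjusted p = 0.0387, within a range of 0.0387 to 0.582 over 13 alternatives). MTHFD1L, which releases formate, had 355, 360, 216 and 331 CPM with DMSO and 402, 247, 302 and 305 CPM with sorafenib. Its change was -0.03 ± 0.19 (adjusted p = 0.928), and the sign turned with library totals alone in place of TMM scaling (0.060), without KU-cHCC-002 (0.15) and without KU-cHCC-005 (0.029).

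Neither cytosolic enzyme passed. MTHFD1, a trifunctional folate enzyme, went from 555, 584, 500.4 and 568 CPM to 456, 421, 490 and 424 CPM, and the groups did not overlap, with sorafenib below. That was true of 5.41% of all genes tested. The log2 fold change was -0.32 ± 0.16 (edgeR adjusted p = 0.176), and it passed in the 8 DMSO and sorafenib libraries alone (-0.33, adjusted p = 0.0470, within a range of 0.0470 to 0.502 over 13 alternatives). SHMT1 lay at 33.6 to 60.9 CPM with DMSO and 30.2 to 76.8 CPM with sorafenib (-0.14 ± 0.23, adjusted p = 0.708).

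ASNS, asparagine synthetase, rose, and was higher in 4 of 4 lines. Its DMSO levels were 150, 193, 215 and 173 CPM and its sorafenib levels 279, 296, 315 and 467 CPM, without overlap. PSPH and ASNS were the 2 genes with sorafenib entirely above DMSO, an arrangement found in 6.60% of all genes tested. The log2 fold change of ASNS was 0.85 ± 0.18 (edgeR adjusted p = 0.00887), and KU-cHCC-005 had the largest per-line change (1.43, against 0.55 to 0.89). Without that line the call ended (0.70, adjusted p = 0.0722, the highest over its 13 alternatives, which began at 1.97e-04), as it did without the line in the model (0.0589).

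**Figure D2:**
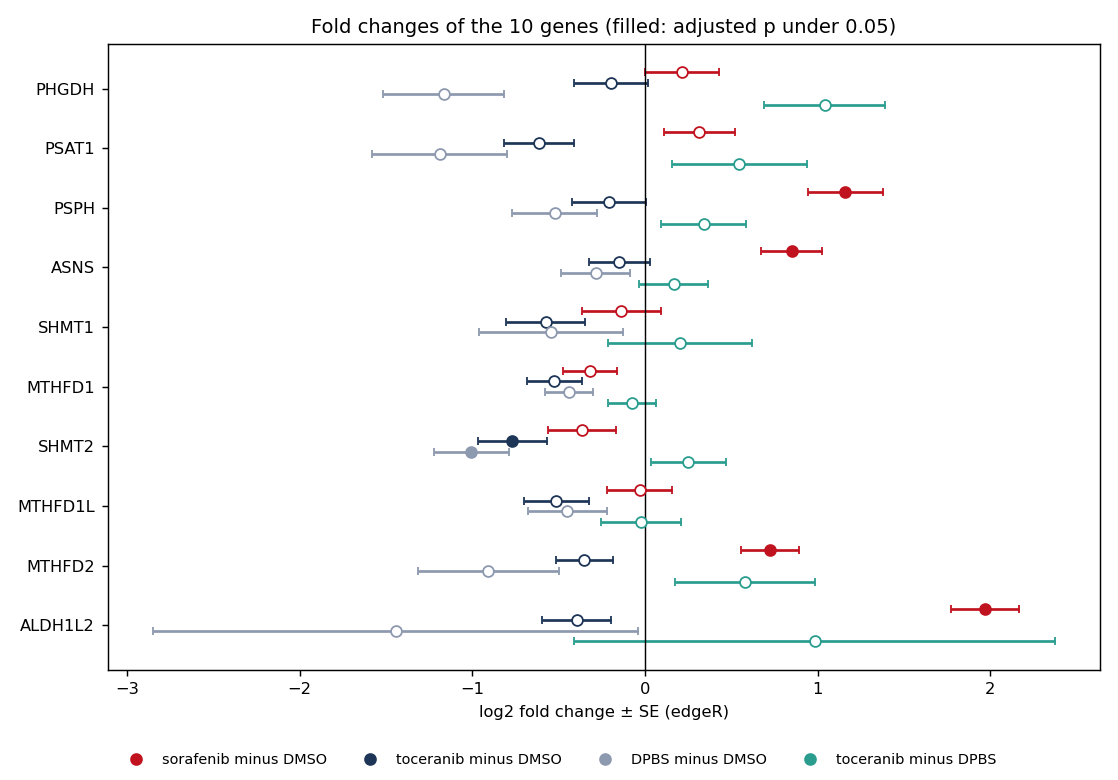
Log2 fold change (x axis, point ± SE from edgeR) of each gene (y axis) in 4 comparisons; filled points have an adjusted p under 0.05. With sorafenib ALDH1L2, PSPH, ASNS and MTHFD2 are filled to the right of 0, whereas toceranib and DPBS lie left of 0 for all 10 genes when set against DMSO.

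The cytosolic and mitochondrial enzymes were then set against each other. For each library the mean log2(CPM + 0.5) of SHMT1 and MTHFD1 was subtracted from that of SHMT2, MTHFD1L, MTHFD2 and ALDH1L2. Since counts also depend on transcript length, this difference was read only as a change between treatments of 1 line. With sorafenib it changed by 0.61, 0.59, 0.74 and 1.14 in KU-cHCC-001, 002, 004 and 005, a mean of 0.77 ± 0.26 (SD, n = 4). The mitochondrial mean was thus higher relative to the cytosolic mean in all 4 lines. Without ALDH1L2 the mean change was 0.33 ± 0.23, from 0.07 to 0.60, and as a ratio of summed CPM it was 0.32. As a score over chosen genes it has no test.

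Pairs of enzymes with like reactions were also compared. The difference MTHFD2 minus MTHFD1 changed by 0.56, 1.103, 1.14 and 1.31 with sorafenib, a mean of 1.03 ± 0.33 (SD, n = 4) on the log2(CPM + 0.5) scale. MTHFD1L minus MTHFD1 was higher in 3 of 4 lines, with a mean change of 0.30 ± 0.26. For the hydroxymethyltransferases the difference SHMT2 minus SHMT1 changed by -0.03, -0.65, -0.39 and 0.16, a mean of -0.23 ± 0.36. Of the 3 pairs, the change had 1 sign in all 4 lines for MTHFD2 and MTHFD1 alone.

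**Figure D3:**
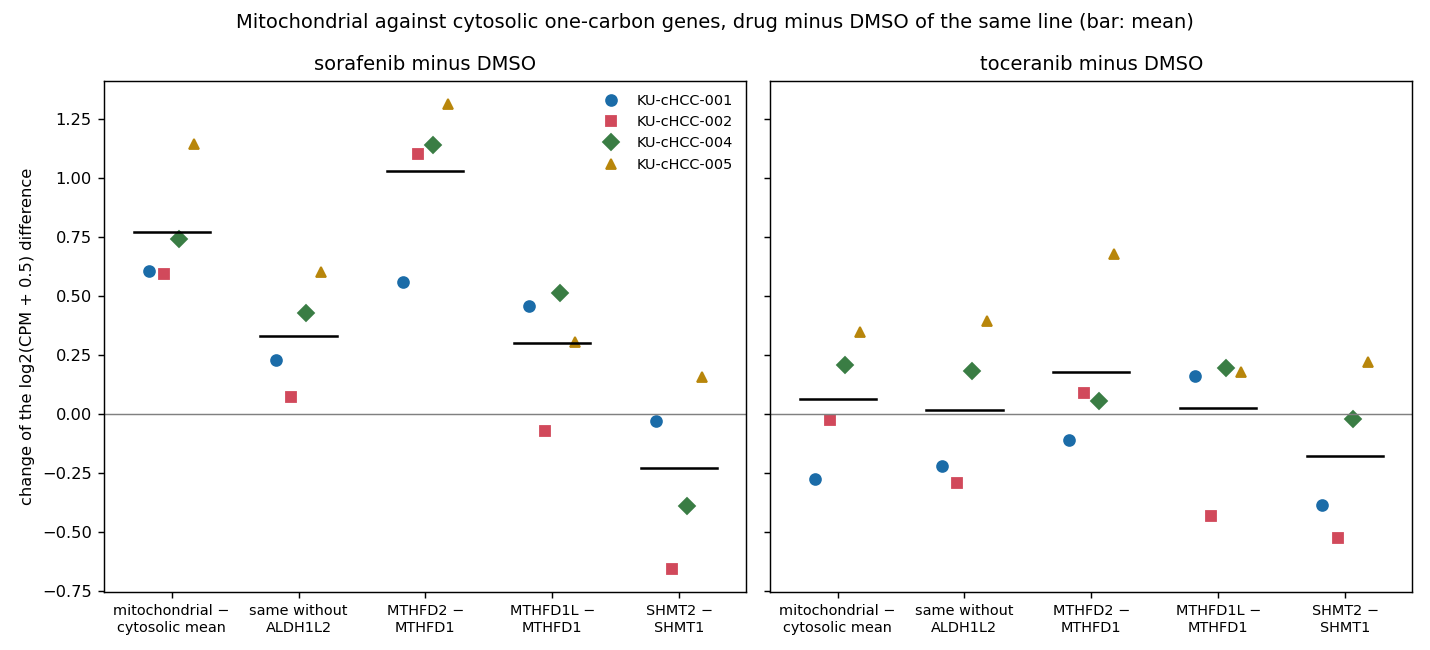
Change of the log2(CPM + 0.5) difference between mitochondrial and cytosolic one-carbon genes (y axis), drug minus DMSO of the same line, for the means and for pairs of enzymes (x axis); symbols mark lines and bars the mean of 4. With sorafenib the first 3 measures lie above 0 in all lines, and with toceranib the means are 0.06 and 0.02 for the first and second.

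Against DMSO, which was not its vehicle, 1 of the 10 genes, SHMT2, was lower with toceranib and none was higher. Drug and vehicle change together here, so that their effects cannot be told apart. Of all 14938 genes tested 7.46% passed, 4.31% higher and 3.15% lower. All 10 estimates were below 0, from -0.77 to -0.15, with a median of -0.45 beside -0.01 over all genes tested. That of PHGDH (-0.20) turned without KU-cHCC-002 (0.048). SHMT2 stood at 313, 180, 267 and 257 CPM with toceranib in KU-cHCC-001, 002, 004 and 005. KU-cHCC-001 differed from its DMSO library by 0.04 on the log2(CPM + 0.5) scale, and the other lines were lower. The log2 fold change was -0.77 ± 0.20 (edgeR adjusted p = 0.0436). Leaving out KU-cHCC-002 (adjusted p = 0.192), 004 (0.189) or 005 (0.246) ended the call, as did a fit without the toceranib library of KU-cHCC-005 (0.133), only the 8 libraries compared (0.145), no line in the model (0.213) and all 16 libraries with the line (0.0667). It thus passed in 6 of 13 alternatives, over a range of 0.00551 to 0.246. SHMT2 was also lower in DPBS minus DMSO (-1.005), and its estimate in toceranib minus DPBS was 0.25 (edgeR adjusted p = 0.793).

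The other genes did not pass with toceranib. MTHFD1 stood at 474, 358, 390 and 322 CPM, entirely below its DMSO values, as were 3.55% of all genes tested (log2 fold change -0.53 ± 0.16, edgeR adjusted p = 0.0634). Without KU-cHCC-001 it passed (-0.60, edgeR adjusted p = 0.0379, within a range of 0.0139 to 0.373 over 13 alternatives). None of the 10 genes had toceranib entirely above DMSO, against 3.98% of all genes tested. PSAT1 stood at 544, 188, 289 and 257 CPM, lower in 3 of 4 lines (-0.61 ± 0.20, adjusted p = 0.0829, within a range of 0.0462, from DESeq2, to 0.573). SHMT1 was high in KU-cHCC-001 alone, with 82.1 CPM against 20.7 to 24.3 CPM in the other lines. Its estimate over all lines was -0.57 ± 0.23 (adjusted p = 0.134). Without KU-cHCC-001 it was -0.90 (edgeR adjusted p = 0.00850, within a range of 0.00850 to 0.838 over 13 alternatives). Of the genes that rose with sorafenib, ALDH1L2 stood at 64.5, 1.43, 5.17 and 27.2 CPM with toceranib (-0.40 ± 0.20, adjusted p = 0.218), and PSPH, MTHFD2 and ASNS had estimates of -0.21, -0.35 and -0.15. KU-cHCC-001 had the highest toceranib level of 9 of the 10 genes, all except ASNS.

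The vehicle of toceranib was DPBS, so the 2 vehicles were also compared. The fit counts 4 DPBS libraries, although they formed 2 close pairs (Pearson's r 0.996 within pairs, 0.961 to 0.962 between). In all 4 the 535 genes of KU-cHCC-001 had a median log2(CPM + 0.5) of -0.84 to -0.26. That line had the highest DMSO level of 6 of the 10 genes. Vehicle and line thus differ together here, and their parts cannot be told apart. DPBS minus DMSO gave an estimate below 0 for all 10 genes, with a median of -0.73 beside -0.08 over all genes tested, and that of ALDH1L2 (-1.44) turned with the labelled line as a block (0.14). At an adjusted p under 0.05 it called 1 of them, SHMT2, where 1.70% of 15515 genes passed, 0.986% higher and 0.709% lower. SHMT2 stood at 185, 231, 194 and 245 CPM in the DPBS libraries labelled 001, 002, 004 and 005, all below its DMSO levels (-1.005 ± 0.22, edgeR adjusted p = 0.0365). The call ended without the libraries labelled 002 (adjusted p = 0.206), 004 (0.332) or 005 (0.305) and without the toceranib library of KU-cHCC-005 (0.0521). It also ended with each close DPBS pair summed (0.384), with library totals alone (0.0511) and without the filter (0.0678), in all 7 of 12 alternatives, over a range of 0.00147 to 0.384. PHGDH stood at 215, 183, 231 and 192 CPM with DPBS, also below every DMSO library (-1.17 ± 0.35, adjusted p = 0.0956). PHGDH passed in 4 of 12 alternatives, over a range of 0.0235 to 0.526. These were without the libraries labelled 001 (-1.01, edgeR adjusted p = 0.0488), without KU-cHCC-001 outside DPBS, with the labelled line as a block, and DESeq2. PSAT1 (-1.19 ± 0.39, edgeR adjusted p = 0.119) passed in 2 of 12, over a range of 0.0311 to 0.548. Groups without overlap, DPBS lower, were found for 4 of the 10 genes, PHGDH, SHMT2, MTHFD1 and MTHFD2, and for 7.91% of all genes tested. DPBS was entirely above DMSO for none of them, against 9.71% of all genes tested.

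Set against DPBS, toceranib called none of the 10 genes and 0 of 15515 genes in all (0%) in edgeR. At an unadjusted p under 0.05 it had 1374 genes, and DESeq2 called 90. Among the 10 genes PHGDH had the largest estimate, 1.04 ± 0.35 (edgeR adjusted p = 0.472), with 691, 252, 479 and 262 CPM with toceranib. The toceranib libraries all lay above the DPBS libraries for PHGDH, as for 3.91% of all genes tested, and no gene of the 10 showed the opposite, found for 5.63%. The estimates for the other 9 genes ran from -0.08 to 0.98. Comparisons of toceranib and of DPBS with DMSO share the DMSO libraries, and in the first of them drug and vehicle change together, so that their effects cannot be told apart. ALDH1L2 followed the DPBS pairs, with 1.66 and 1.77 CPM in the libraries labelled 001 and 004 and 22.9 and 23.7 CPM in those labelled 002 and 005, the libraries with stromal transcripts. The 6 genes that stood out in KU-cHCC-002 had a median log2(CPM + 0.5) of 3.11 and 2.99 in DPBS 001 and 004. In DPBS 002 and 005 it was -0.70 and -0.92. For the 22 genes that stood out in KU-cHCC-005 it was -0.66 and -0.69, against 1.99 and 1.91. With DMSO, ALDH1L2 was at 1.33 CPM in KU-cHCC-002 and 45.2 CPM in KU-cHCC-005. The parts of stromal transcripts and of the line in the DPBS levels were not tested.

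Toceranib and sorafenib libraries differed in 5 of the 10 genes, all lower with toceranib. Of the 14938 genes tested 38.4% passed, 18.3% lower and 20.1% higher. Drug, dose and vehicle change together in this comparison, so that their effects cannot be told apart. DPBS minus DMSO also had estimates below 0 for all 10 genes, with a median of -0.73. In toceranib against sorafenib the differences were as follows. ALDH1L2 differed most, at -2.37 ± 0.20 (log2 fold change, edgeR adjusted p = 5.04e-05), followed by PSPH (-1.37 ± 0.22, adjusted p = 0.00102) and MTHFD2 (-1.08 ± 0.17, adjusted p = 9.27e-04). ASNS (-0.998 ± 0.18, adjusted p = 0.00176) and PSAT1 (-0.93 ± 0.20, adjusted p = 0.00517) completed the 5. Each of the 5 was lower with toceranib in 4 of 4 lines. PSPH and ASNS had toceranib entirely below sorafenib, as did 10.9% of all genes tested, and none of the 10 had toceranib entirely above, against 9.75%. All 4 other calls held with any 1 line left out, and that of PSAT1 ended without KU-cHCC-004 (edgeR adjusted p = 0.0503, within a range of 2.15e-04 to 0.211 over 13 alternatives). Without the line in the model PSPH and ASNS kept theirs, and PSAT1 (0.211), MTHFD2 (0.185) and ALDH1L2 (0.294) did not. ALDH1L2 also lost its call when the DPBS libraries entered under their labelled lines (0.141, within a range of 1.18e-23 to 0.294). The 2 cytosolic enzymes did not pass, with SHMT1 at -0.44 ± 0.23 and MTHFD1 at -0.21 ± 0.16. Without KU-cHCC-001 SHMT1 passed (-0.65, edgeR adjusted p = 0.0115, within a range of 0.0115 to 0.723). PHGDH (-0.41 ± 0.22), SHMT2 (-0.40 ± 0.20) and MTHFD1L (-0.48 ± 0.19) did not pass either, although MTHFD1L did with library totals alone (edgeR adjusted p = 0.0488, within a range of 0.0488 to 0.281). The mitochondrial minus cytosolic mean was lower with toceranib than with sorafenib in all 4 lines, by -0.88 to -0.54 on the log2(CPM + 0.5) scale, and differed from DMSO by -0.28 to 0.35.

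Genes around these enzymes were grouped into 8 lists, each described by its counts and its median log2 fold change. The counts for sorafenib are to be read against 9.59% higher and 10.1% lower over all genes tested, with a median of -0.02. With sorafenib, the list of other folate cycle genes had 1 higher and 1 lower of 17 tested, with a median of 0.13. MTHFD2L, a mitochondrial relative of MTHFD2, went from 2.56 ± 1.05 to 8.44 ± 2.89 CPM (SD, n = 4), a log2 fold change of 1.75 ± 0.34 (edgeR adjusted p = 0.00730). SLC46A1, a folate transporter, was the one that fell (-0.60). Of 23 genes that use or carry serine and glycine 5 rose and 3 fell, with a median of 0.10. ALAS1, which joins glycine to succinyl-CoA in haem synthesis (1.52), CTH, which makes cysteine from cystathionine (1.37), SERINC5 (1.22) and GCSH, a carrier of the glycine cleavage system (0.82), were highest. SPTLC3, a subunit of the enzyme that condenses serine with fatty acids (-1.17), the transporter SFXN3 (-0.85) and the mitochondrial seryl-tRNA synthetase SARS2 (-0.82) fell.

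The proline branch had 2 higher and 1 lower of 5 tested. ALDH18A1, which starts proline synthesis from glutamate, went from 194 ± 31.6 to 406 ± 73.2 CPM (SD, n = 4), and PYCR1, the mitochondrial last step, from 175 ± 34.1 to 335 ± 28.8 CPM. PYCR3, a cytosolic relative of PYCR1, fell (-0.94). Of 14 genes of asparagine, aspartate and glutamine metabolism, GPT2 (0.93) and pyruvate carboxylase PC (1.08) rose and GLUL, glutamine synthetase (-1.12), and ASL, argininosuccinate lyase (-0.99), fell. In the methionine cycle 2 of 10 rose, AHCYL1 (0.53) and MRI1 (0.72), and none fell. Purine synthesis, which consumes one-carbon units, had 0 higher and 1 lower of 15, ADSS1 (-2.48), with a median of 0.20.

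The list of ATF4, its regulators and partners also holds known targets of ATF4, among them DDIT3, SESN2, TRIB3 and CHAC1. It had 8 higher and 0 lower of 20, with a median of 0.38. PPP1R15A, which reverses the stress signal at eIF2 (1.71), DDIT3 or CHOP (1.67), SESN2 (1.52) and CEBPG, a dimer partner of ATF4 (1.20), were highest. ATF4 itself, named after its values were seen, averaged 712 ± 108 CPM with DMSO against 639 ± 46.7 CPM with sorafenib (SD, n = 4; log2 fold change -0.17, edgeR adjusted p = 0.554). DNA replication draws on thymidylate and purines, and of its 13 listed genes 8 fell and 0 rose, with a median of -0.74. RRM2 (-2.03), MCM5 (-1.93), MCM2 (-1.71) and UNG (-1.70) had the largest decreases. The part of fewer replicating cells in the levels of the 10 enzymes was not tested, and in bulk RNA fewer cells of a kind and less RNA per cell cannot be told apart.

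Of the 27 list genes named for sorafenib, 11 kept their call with any 1 line left out: ALAS1, CTH, ALDH18A1, PYCR1, CEBPG, DDIT3, PPP1R15A, MCM2, MCM5, RRM2 and UNG. The ATF4 list had 8, 4, 5 and 3 genes higher with KU-cHCC-001, 002, 004 and 005 left out in turn, and the replication list 10, 4, 4 and 4 lower. The serine and glycine list had 7, 3, 2 and 3 higher and 3, 1, 1 and 0 lower. The methionine cycle had 2, 0, 0 and 0 higher, the folate cycle 2, 0, 0 and 1 higher and 2, 0, 0 and 0 lower, and the asparagine, aspartate and glutamine list 2, 0, 1 and 0 higher and 2, 0, 0 and 1 lower. The proline branch had 3, 2, 2 and 2 higher and 1, 0, 0 and 0 lower, and purine synthesis 1, 0, 0 and 0 higher and 1, 1, 0 and 1 lower. Calls over all genes went from 2935 to 3906, 915, 596 and 783 in the same order. The ATF4, replication, methionine and serine counts were thus smaller when any line other than KU-cHCC-001 was left out, as was the count over all genes.

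**Figure D4:**
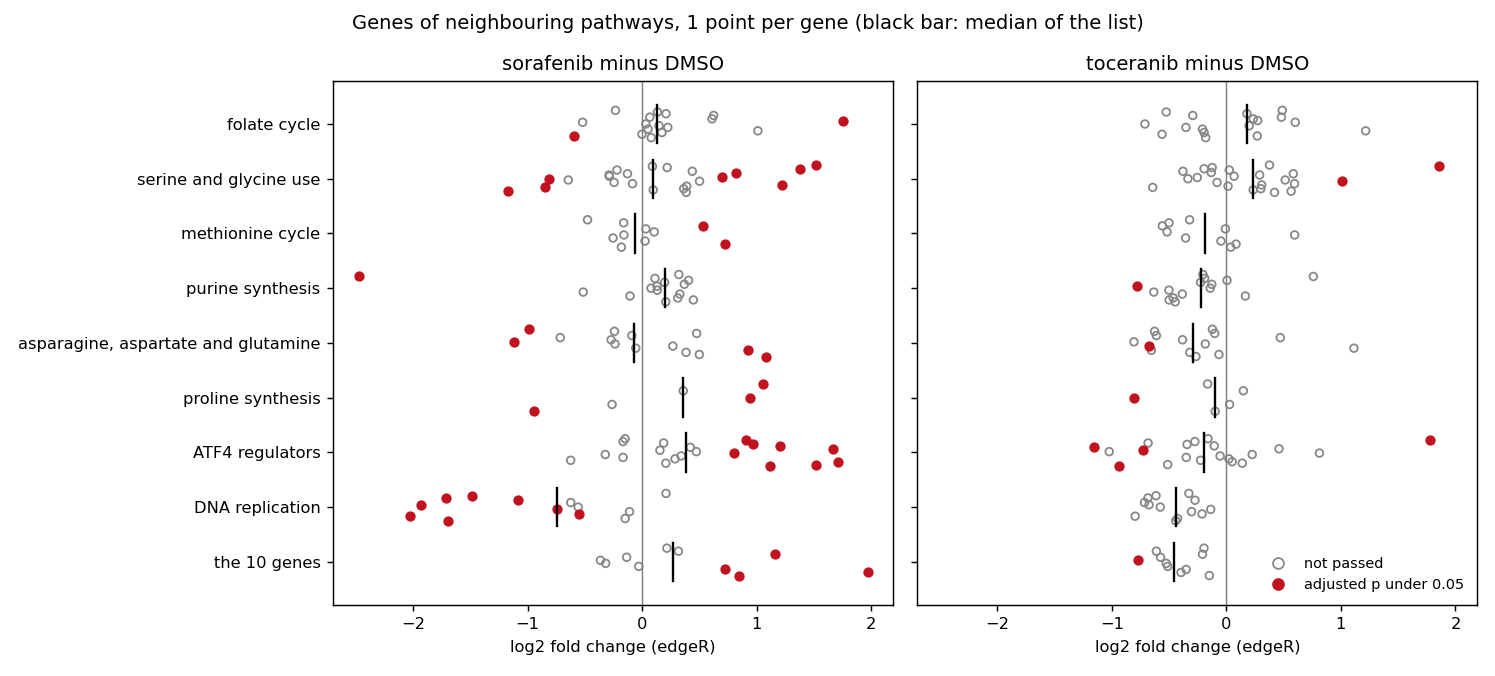
Log2 fold change (x axis, edgeR) of each tested gene of 8 neighbouring lists and of the 10 enzymes (y axis), for sorafenib and toceranib against DMSO; red points have an adjusted p under 0.05 and black bars are list medians. With sorafenib 8 of 20 ATF4 list genes are called higher and 8 of 13 replication genes lower, and with toceranib few genes are called in any list.

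Toceranib against DMSO called 9 list genes, where 4.31% of all genes tested were higher and 3.15% lower. AMT, the aminomethyltransferase of glycine cleavage, went from 10.1 ± 3.08 to 38.0 ± 15.99 CPM (SD, n = 4; log2 fold change 1.86 ± 0.31, edgeR adjusted p = 0.0160), and SERINC1 rose (1.01), 2 higher and 0 lower of 23. PYCR1 fell (-0.81), 1 of 5 proline genes, as did GOT2, mitochondrial aspartate aminotransferase (-0.67), 1 of 14, and the purine enzyme GMPS (-0.78), 1 of 15. Of the 20 ATF4 list genes 1 rose, ATF3 (1.78), and 3 fell, CHAC1 (-1.15), TRIB3 (-0.94) and EIF2AK1 (-0.73). No gene passed in the folate cycle (ALDH1L1 0.49, TYMS -0.18), the methionine cycle (ADI1 -0.32, AHCYL1 -0.56) or DNA replication (RRM2 -0.80, MCM6 -0.58). None of the 9 calls held with each line left out in turn, since all ended without KU-cHCC-002 and likewise without KU-cHCC-005, and all except ATF3 also without KU-cHCC-004. Calls over all genes then went from 1115 to 7, 4 and 1 without KU-cHCC-002, 004 and 005. Without KU-cHCC-001, by contrast, they went to 3044. The folate cycle then had 3 higher and 2 lower, the methionine cycle 2 lower and replication 5 lower. The asparagine, aspartate and glutamine list then had 1 higher and 6 lower, purine synthesis 1 higher and 3 lower, and the ATF4 list 1 higher and 5 lower. DPBS minus DMSO called 4 list genes, all lower: PYCR1 (-1.23), GPT2 (-1.28), TRIB3 (-1.26) and CHAC1 (-1.44). Over all genes tested 0.986% were higher and 0.709% lower. These 4 calls too ended without the libraries labelled 002, 004 or 005. Without those labelled 001 the ATF4 list had 4 lower and 1 higher and purine synthesis 3 lower and 1 higher. Calls over all genes went from 263 to 1418 without the libraries labelled 001, and to 0, 0 and 1 without those labelled 002, 004 and 005. Toceranib minus DPBS called none of the list genes.

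Between the drugs, whose libraries differ in dose and vehicle too, 18.3% of all genes tested were lower with toceranib and 20.1% higher. By list, 10 of 20 ATF4 list genes were lower with toceranib and 2 higher, led by TRIB3 (-2.06), SESN2 (-2.03), PPP1R15A (-1.66) and CHAC1 (-1.57), with ATF3 (0.87) and EIF2AK4 (0.55) higher. PYCR1 (-1.74) and ALDH18A1 (-1.22) were lower and PYCR3 (0.85) higher. The serine and glycine list had 6 lower and 4 higher of 23, near the shares over all genes, with CTH (-1.57), ALAS1 (-1.14), the seryl-tRNA synthetase SARS1 (-0.95) and GCSH (-0.95) lower and AMT (1.77), SPTLC3 (1.74), GLYCTK (0.71) and SERINC3 (0.68) higher. In the folate cycle 6 of 17 were lower, among them MTHFD2L (-1.47), GCH1 (-0.92) and MTHFS (-0.74), and 3 were higher, among them SLC46A1 (0.87) and ALDH1L1 (0.72). Purine synthesis had 8 of 15 lower, with PRPS1 (-0.95), GMPS (-0.91), PPAT (-0.77) and PAICS (-0.71) first, and ADSS1 (3.24) higher. GPT2 (-1.58), PC (-1.34), GOT2 (-0.94) and NARS1 (-0.70) were lower and GPT (1.17) and ASL (0.87) higher, of 6 lower and 2 higher among 14. AHCYL1 (-1.09) and MRI1 (-0.63) were lower in the methionine cycle. Of the replication genes 6 of 13 were higher with toceranib, among them UNG (1.26), MCM5 (1.26), RRM2 (1.23) and MCM2 (1.03). Of the 41 genes that the naming rule picked, 21 kept their call with any 1 line left out. With KU-cHCC-001, 002, 004 and 005 left out in turn, 7, 1, 3 and 1 folate cycle genes and 8, 3, 4 and 2 purine genes were lower. In the same order 6, 3, 2 and 3 replication genes were higher. Calls over all genes went from 5737 to 6750, 3908, 3017 and 3117.

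The levels of the 10 genes over the 12 DMSO, sorafenib and toceranib libraries, each centred on the mean of its line, showed which moved together. Pearson's r was 0.94 for PSPH with MTHFD2, 0.94 for PSPH with ASNS, 0.92 for PSPH with ALDH1L2 and 0.91 for ALDH1L2 with ASNS. SHMT1 and SHMT2 had an r of 0.86 with each other, and SHMT2 had 0.21 with PSPH and 0.17 with ALDH1L2. MTHFD1 had 0.12 with PSPH and 0.06 with ALDH1L2. These are descriptions over libraries that share 3 treatments and 4 lines, and no p was computed. By the same measure 10285 other genes were ranked for each of the 10, and the first 2 are given. As the highest of so many, their r values do not show shared regulation. The genes most like ALDH1L2 were BCL2L13 (0.99) and ATG4C (0.99). Those most like PSPH were CSRP2 (0.99) and ETFDH (0.98), and those most like MTHFD2 were PPP2R2A (0.99) and SHQ1 (0.98). The nearest to ASNS were VTI1A (0.98) and WDR45B (0.97), and to PSAT1 CPNE1 (0.94) and BCAT2 (0.94). The nearest were ARFGAP1 (0.93) and C3H4orf48 (0.92) for PHGDH, ARHGDIA (0.95) and CAVIN1 (0.95) for SHMT2, and NLRX1 (0.97) and PEX5 (0.95) for SHMT1. They were TTLL12 (0.99) and MYCBP (0.97) for MTHFD1, and SERGEF (0.95) and NUDT21 (0.94) for MTHFD1L.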

How the data were processed

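The deposited values are whole-number counts for each gene symbol, not normalized by the authors, in 1 table for each of 16 libraries. Libraries were made with a directional kit, per the labels' protocols, and TopHat appears in the submitters' processing notes. No version, counting program, strand setting, genome build or annotation was given in the sources used here. Coordinates are therefore not printed, and near-identical, overlapping or antisense genes are uncertain. Each table had 39954 entries; entries of 1 symbol were summed to 39543 symbols. Genes were kept by filterByExpr, TMM scaling was applied, and robust quasi-likelihood models were fitted in edgeR 4.0.16 with limma 3.58.1 (R 4.3.3). The 12-library fit held treatment and line (14938 genes, 6 residual degrees of freedom); the 16-library fit held treatment alone (15515 genes, 12). Benjamini-Hochberg adjustment ran over all genes tested, and an adjusted p under 0.05 was called. These p-values measure the spread between these libraries, 1 culture per line and treatment as far as the labels say. The SE is the size of the log2 fold change divided by the root of F. CPM use 1 TMM scaling of all 16 libraries. Counts lack molecular identifiers, so counting error understates the error. The fits were tested on simulated data with less spread between libraries (dispersion) than these data. The common dispersion was 0.081 in the 12-library fit and 0.301 in the 16-library fit. That test therefore does not show how the fits perform at the spread of these data.

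By the labels, libraries of the same number come from the same cell line, which is where the pairing comes from; the DPBS libraries went against this. Deviations from treatment means correlated within lines at 0.750 to 0.892 between DMSO and sorafenib and 0.555 to 0.794 between DMSO and toceranib, but -0.449 to 0.288 between DMSO and DPBS. The genes, lists and tests were chosen with earlier results of these data known. Named list genes are, per list and direction, up to 4 called genes with the largest change, or without a call the 2 with the highest CPM, given here for sorafenib and toceranib against DMSO and against each other; some that the rule picked are not reported here. The likeness of patterns used genes with a mean of at least 5 CPM, LOC symbols left out. Alternatives were other scalings, filters, library sets and models, DESeq2 1.42.0, and leaving out each line. A planned promoter search was not run.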

Additional observations from a re-analysis of the deposited data

Results flagged for a closer look

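On the log2(CPM + 0.5) scale, 4 of 40 sets of 4 libraries (10 genes in 4 treatments) held a library far from the other 3 by Dixon's 95% limit, which chance passes in about 1 in 20 sets. PHGDH in sorafenib of KU-cHCC-001 stood at 874 CPM, against 408 to 454 CPM in the other lines. SHMT1 in toceranib of KU-cHCC-001 stood at 82.1 CPM, against 20.7 to 24.3 CPM. SHMT1 in the DPBS library labelled KU-cHCC-005 stood at 37.6 CPM, against 30.5 to 31.0 CPM. MTHFD1L in DMSO of KU-cHCC-004 stood at 216 CPM, against 331 to 360 CPM.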

How the results depend on the processing

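Each comparison was repeated under 12 or 13 alternatives, and precision is limited by 1 library per line and treatment. For the 10 genes under 13 alternatives, direction and side of the threshold held in 113 estimates of sorafenib against DMSO (4 reversed), 118 of toceranib against DMSO (1 reversed) and 123 of toceranib against sorafenib (0 reversed). Without the block for cell line (no replicate block), sorafenib against DMSO called 464 genes, 1 of the 10 (PSPH) higher; toceranib against DMSO called 0 in edgeR (2048 at an unadjusted p under 0.05), with 0 of the 10; and toceranib against sorafenib called 2159, with 2 of the 10 lower. With the replicate block, DPBS against DMSO called 718 genes, 3 of the 10 lower, and estimates turned sign for ALDH1L2 (0.14) there and for SHMT1 (-0.068) and ALDH1L2 (-0.58) in toceranib against DPBS. With all 16 libraries and the line block, sorafenib raised 2 of the 10, and toceranib against DMSO called 557 genes and 0 of the 10. With only the 8 libraries compared, sorafenib called 5053 genes, 1 of the 10 lower, and toceranib against DMSO 129 genes and 0 of the 10. DESeq2 called 2335 genes for toceranib against DMSO (3 of the 10 lower), 90 for toceranib against DPBS and 1142 for DPBS against DMSO (4 of the 10 lower). Without the toceranib library of KU-cHCC-005, toceranib against DMSO called 66 genes and 0 of the 10, toceranib against DPBS 1 gene, and DPBS against DMSO 145 genes and 0 of the 10; MTHFD1 (0.0049) and MTHFD1L (0.012) turned sign in toceranib against DPBS. Library totals alone left 0 of the 10 lower in DPBS against DMSO and turned MTHFD1L with sorafenib (0.060); no filter left 19 genes and 0 of the 10 in DPBS against DMSO, and summed DPBS pairs 0 genes in edgeR (1506 at an unadjusted p under 0.05) and 0 of the 10. Without KU-cHCC-001 outside DPBS, DPBS against DMSO called 2342 genes, 3 of the 10 lower, and SHMT1 (-0.53) and ALDH1L2 (-0.16) turned in toceranib against DPBS. The mitochondrial minus cytosolic change with sorafenib was 0.33 without ALDH1L2 and 0.32 by summed CPM, that of toceranib minus sorafenib -0.32 and -0.45, and that of toceranib against DMSO turned to -0.13 by summed CPM. The causes were not tested.

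With 1 line left out in turn, sorafenib against DMSO called 596 to 3906 genes, 1 to 4 of the 10 higher and 0 to 1 lower. Toceranib against DMSO called 1 to 3044 genes, 0 to 3 of the 10 lower; toceranib against sorafenib 3017 to 6750; toceranib against DPBS 0 to 1; and DPBS against DMSO 0 to 1418, 0 to 2 of the 10 lower. Estimates that changed sign ran from -0.19 to 0.15 for MTHFD1L and -0.24 to 0.026 for SHMT1 with sorafenib, and from -0.29 to 0.048 for PHGDH and -0.38 to 0.065 for TYMS with toceranib against DMSO. In toceranib against DPBS they ran from -0.53 to 1.84 for ALDH1L2, -0.27 to 0.10 for MTHFD1L and -0.56 to 0.46 for SHMT1. The mitochondrial minus cytosolic change of toceranib against DMSO ran from -0.031 to 0.18.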
